A study of Homo sapiens with 33 samples.

Results

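The genes described are the 4 human HOX clusters together with HOTAIRM1, a long non-coding RNA of the HOXA cluster. They were chosen as the rows of the count table whose identifier maps to a protein-coding HOXA, HOXB, HOXC or HOXD gene of a list of symbols or to HOTAIRM1, which gave 39 genes of 85160. They were followed in NB4, an established cell line of acute promyelocytic leukaemia, whose cells carry the PML-RARA fusion and are held at the promyelocyte stage. The cells were treated for 4, 12, 24, 72 or 120 h with all-trans retinoic acid (ATRA) at 1 µM, a form of vitamin A that makes such cells mature, or with DMSO, its solvent, and untreated cells were taken at 0 h. These 11 groups had 3 biological replicates each, with the numbers 2, 4 and 5, so that 33 libraries of stranded total RNA were compared. All groups came from this 1 line, and fresh medium with drug was given on day 3.

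HOX genes encode homeodomain transcription factors that lay out the body axis in embryos and are used again in blood formation. In each cluster they stand in a row, with the anterior genes (low numbers) at the 3′ end and the posterior genes (high numbers) at the 5′ end, and in embryonal cells retinoic acid switches them on from the 3′ end first. Retinoic acid receptors bind DNA as pairs at repeats of hexamers such as AGGTCA and GGGTCA. In myeloid leukaemia, posterior HOXA genes, HOXA9 above all, are known for keeping cells immature, while HOTAIRM1, transcribed at the 3′ end of the HOXA cluster, is known as a myeloid RNA that accumulates as NB4 cells mature.

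The posterior genes HOXA11, HOXA13 and HOXD13 gave some of the clearest values, because their counts are their own. Their promoters, from the RefSeq table (GRCh38.p14), are shown because the 3 genes fell together with ATRA and lie at the 5′ ends of their clusters. Each sequence is the 250 bases before the start, read 5′ to 3′ on the gene's strand, and capitals mark a match to AGGTCA or GGGTCA on either strand.
HOXA11, chr7:27185233-27185482, minus strand: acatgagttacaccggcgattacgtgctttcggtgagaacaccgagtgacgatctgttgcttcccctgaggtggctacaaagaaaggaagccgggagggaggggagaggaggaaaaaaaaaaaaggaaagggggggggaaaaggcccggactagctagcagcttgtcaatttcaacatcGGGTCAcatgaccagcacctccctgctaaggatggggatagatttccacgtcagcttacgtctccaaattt
HOXA13, chr7:27200092-27200341, minus strand: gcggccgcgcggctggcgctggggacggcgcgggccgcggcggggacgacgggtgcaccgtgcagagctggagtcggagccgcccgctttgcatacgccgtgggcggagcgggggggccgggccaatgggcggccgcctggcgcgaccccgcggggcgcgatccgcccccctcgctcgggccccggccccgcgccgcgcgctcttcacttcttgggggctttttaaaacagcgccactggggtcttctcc
HOXD13, chr2:176092471-176092720, plus strand: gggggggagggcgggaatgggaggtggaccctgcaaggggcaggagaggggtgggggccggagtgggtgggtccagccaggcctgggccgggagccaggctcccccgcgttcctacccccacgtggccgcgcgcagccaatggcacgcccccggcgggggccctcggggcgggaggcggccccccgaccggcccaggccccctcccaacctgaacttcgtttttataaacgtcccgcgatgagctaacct
The HOXA11 promoter held 1 such hexamer, at position -71 from the start, and the HOXA13 and HOXD13 promoters held none in this window. Of 27 promoters found for 20 of the 39 genes, 2 (7.41%) held a hexamer, those of HOXA11 and 1 of HOXA3, against 15.3% of all 35116 promoters of the same length. A direct repeat of the hexamers with 1, 2 or 5 bases between them was in 0 of the 27, against 12, 4 and 4 of the 35116. Such repeats are so rare (0.0342%, 0.0114% and 0.0114% of all promoters) that their absence from 27 tells nothing about these genes. Other hexamers were not searched. These matches describe letters in a window and say nothing of binding.

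Libraries held between 18341456 and 33490654 counted fragments (median 25927472), and libraries of a group correlated at 0.9929 or above on the log scale across genes. All libraries of 0, 4 and 12 h were run in lane 4, per the column names. From 24 h on, replicate 2 was in lane 2 and replicates 4 and 5 were in lane 3. A comparison within a time is therefore balanced over lanes, while a comparison of DMSO at 24, 72 or 120 h with untreated cells cannot be told apart from the lane. Levels are CPM, a gene's fragments for every 1000000 of its TMM-scaled library, and a gene is said to have risen or fallen where edgeR's quasi-likelihood test gave a Benjamini-Hochberg adjusted p under 0.05 over all 22971 genes tested. In bulk RNA, fewer cells with a transcript and less of it per cell cannot be told apart.

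The clusters differed in how many of their genes had fragments. Of the 39 genes 26 had enough counts to be tested, namely 11 of 11 in HOXA with HOTAIRM1 (chromosome 7), 5 of 10 in HOXB (chromosome 17), 8 of 9 in HOXC (chromosome 12) and 2 of 9 in HOXD (chromosome 2). HOXD13 had 30753 fragments over all libraries, and the other 8 HOXD genes had few. The other 13 genes had few or no fragments: HOXB1, HOXB2, HOXB4, HOXB5, HOXB13, HOXC5, HOXD1, HOXD3, HOXD4, HOXD8, HOXD9, HOXD10 and HOXD11. HOXC5 had the most of them, with 87 fragments, and 8 genes had 10 or fewer. HOXD8 was at 0 in 33 libraries, which allows up to 0.00351 CPM over all libraries together, as far as counting error goes.

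**Figure D1:**
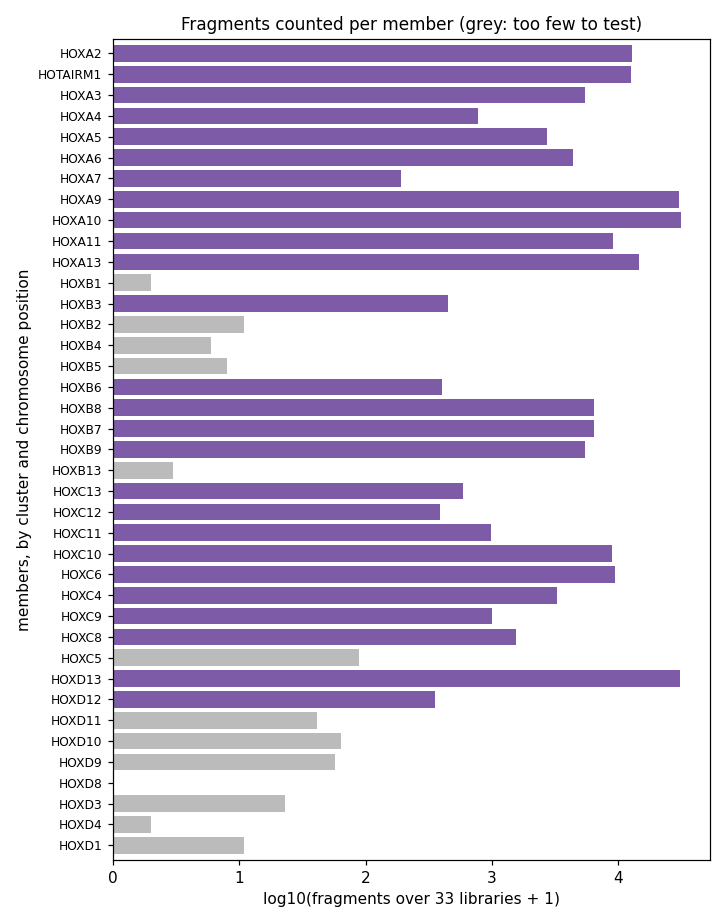
Fragments counted per gene over the 33 libraries, as log10(fragments + 1), with the genes in order of cluster and start position. Grey bars are the 13 genes with too few fragments to test, which include 5 of HOXB and 7 of HOXD; HOXA10 (31468), HOXD13 (30753) and HOXA9 (30272) have the longest bars.

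The counting sets a limit that differs from gene to gene. A fragment that overlapped several gene models was counted in each of them, and 26 of the 39 models share over 50% of their exon length with another model of the same strand (17 of them over 90%). Another 9 share less than 10%, and 7 of these were tested: HOTAIRM1, HOXA11, HOXA13, HOXC12, HOXC13, HOXD12 and HOXD13. HOXB7, HOXB8 and HOXB9 had 6439, 6394 and 5412 fragments, and the exons of HOXB9 lie wholly within those of HOXB7, so that these 3 are 1 measurement. HOXA9 and HOXA10 overlap over 61.6% of HOXA10, and their counts stood at a ratio between 0.925 and 1.005 in every library. HOXA2 shares 63.8% of its exon length with HOXA3 and 76.0% with other models in all. HOXC6 shares exon sequence with HOXC4, HOXC8, HOXC9 and HOXC10, and HOXC4 does so with HOXC6, HOXC8, HOXC9 and HOXC10, while HOXC8 shares 10 bases with HOXC10 and no base with HOXC9. Of HOXC11, 98.1% lies in another model.

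In untreated cells the genes with counts of their own can be ranked by level per length. HOXD13 stood highest at 15.0 CPM per 1000 exon bases, followed by HOXA11 at 3.84, HOXA13 at 1.84, HOTAIRM1 at 0.385, HOXD12 at 0.154, HOXC13 at 0.138 and HOXC12 at 0.00654. The libraries of HOXD12 (0.177 to 0.419 CPM) and HOXC13 (0.262 to 0.634 CPM) overlap before the division by length, and the order of these 2 neighbours does not stand beyond their spread. HOXC12 had 3 fragments in the untreated libraries together, all in replicate 5.

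With ATRA the 2 ends of the HOXA cluster moved in opposite directions. HOTAIRM1 and HOXA2 at the 3′ end rose at every time, HOXA9, HOXA10, HOXA11 and HOXA13 towards the 5′ end fell, and outside HOXA the posterior genes HOXB9 and HOXD13 fell while HOXC12 and HOXC13 rose, each at 2 or more of the 5 times. The call of HOXB9 at 72 h, the earlier of its 2, was lost with other DMSO times in place of 72 h (log2 fold change 0.25). At 4 h 4 of the 26 tested had risen and 6 had fallen, where 12.3% of all genes were called higher and 12.4% lower (24.7% either way). The 10 calls became 4 with only the 4 h groups fitted and 4 without ATRA replicate 5. At 12 h 4 had risen and 4 had fallen, where 20% of all genes were called higher and 18.7% lower (38.7% either way), and at 24 h 3 and 7, where 17.4% and 15.8% were (33.2%). At 72 h 5 had risen and 13 had fallen, where 32.1% of all genes were called higher and 32.6% lower (64.7% either way). That split turned round when the mean of DMSO at 24 and 120 h stood in for DMSO at 72 h, whose libraries stood apart: 14 were then higher and 5 lower, where 35.7% and 33.6% of all genes were (69.4% either way). At 120 h 8 had risen and 13 had fallen, where 34.9% and 35.6% of all genes were called higher and lower (70.6% either way). The share of the 26 that was called, 38.5%, 30.8%, 38.5%, 69.2% and 80.8%, is near that of all genes at 12, 24 and 72 h, so the count of HOX genes called is not in itself a result. Shared fragments also enter these counts more than once. The falls at 72 and 120 h include HOXB7 with HOXB8 and HOXB9, HOXA5 with HOXA6, and HOXA9 with HOXA10, whose models overlap.

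**Figure D2:**
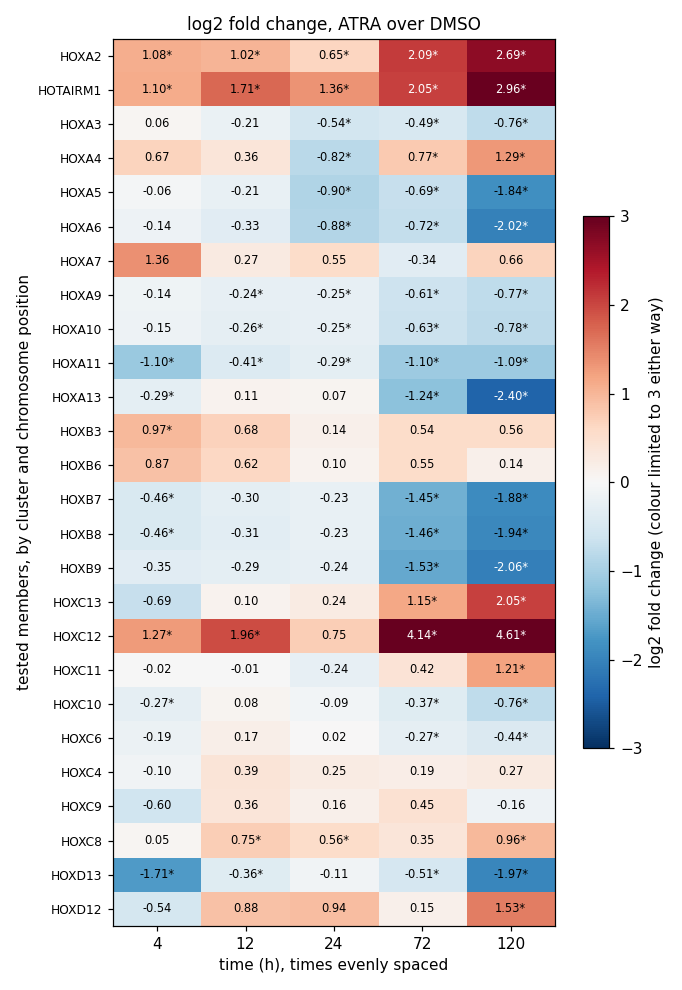
Log2 fold change of ATRA over DMSO for the 26 tested genes (rows, in order of cluster and start position) at 5 times (columns), with an asterisk where the adjusted p was under 0.05 and colours limited to 3 either way. HOTAIRM1 and HOXA2 are red throughout, while HOXA11 is blue throughout and HOXA13 and HOXB7 to HOXB9 are blue at 72 and 120 h.

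HOTAIRM1 (chr7:27095575-27105305, plus strand, GRCh38) had the largest rise at 120 h of the 11 HOXA cluster genes among the 39. Its lead over HOXA2 was not tested. HOXA-AS2, a non-coding RNA of the same cluster outside the 39, rose by more, by 4.27 on the log2 scale. At 4 h HOTAIRM1 had 12.2, 11.8 and 13.8 CPM in ATRA libraries, against 5.36, 6.74 and 5.44 CPM in DMSO libraries. Its ATRA libraries of 72 h had 48.4, 52.8 and 55.3 CPM, against 12.4, 12.1 and 13.2 CPM with DMSO. Those of 120 h had 32.2, 34.1 and 38.9 CPM, against 4.51, 4.39 and 4.57 CPM with DMSO. The groups did not overlap at any of these times, and the DMSO libraries of 72 h stood above every other DMSO library. The log2 fold change was 1.10 ± 0.11 (standard error) at 4 h, 1.71 ± 0.10 at 12 h, 1.36 ± 0.10 at 24 h, 2.05 ± 0.09 at 72 h and 2.96 ± 0.11 at 120 h, with adjusted p = 5.2e-11 at 4 h and 1.39e-25 at 120 h. In DMSO, HOTAIRM1 was itself above untreated cells (3.51, 3.33 and 3.93 CPM) by 0.70, 0.49, 0.71 and 1.80 on the log2 scale at 4, 12, 24 and 72 h (adjusted p = 2.79e-05, 0.00338, 4.68e-05 and 4.81e-16), and at 120 h by 0.32 (adjusted p = 0.0731). Its model lies wholly opposite other gene models, and the counting used the strand.

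HOXA2, an anterior gene that patterns the hindbrain and neural crest, rose with HOTAIRM1. It had 13.9, 13.9 and 12.8 CPM with ATRA at 4 h, against 7.29, 5.50 and 6.50 CPM with DMSO, and 45.3, 51.2 and 40.1 CPM with ATRA at 120 h, against 7.28, 6.65 and 7.23 CPM with DMSO. The log2 fold changes were 1.08, 1.02, 0.65, 2.09 and 2.69 from 4 to 120 h, the adjusted p of 24 h being 2.94e-05. Of its exon length 63.8% is also HOXA3, and a further part belongs to a model not analysed here, so these fragments cannot be assigned to HOXA2 alone. A fragment in the part shared with HOXA3 was counted in both. HOXA3 had at most 278 fragments in a library and HOXA2 up to 1125, so in the library highest for HOXA2 most of its fragments lay outside that part. HOXA3, which holds that shared sequence, did the opposite: its log2 fold change was 0.06 at 4 h and -0.21 at 12 h, neither called, and it fell by 0.54, 0.49 and 0.76 at 24, 72 and 120 h (adjusted p = 0.000857, 0.000381 and 2.9e-06).

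The middle genes HOXA4 to HOXA7 showed no call at 4 or 12 h, other than HOXA6 at 12 h with the replicate block (-0.33, adjusted p = 0.0319), without ATRA replicate 4 (0.0202) or without DMSO replicate 2 (0.0148). HOXA5, a gene of lung and vertebral patterning and of early blood cells, had 1.07, 1.32 and 0.749 CPM with ATRA at 120 h, against 4.22, 3.65 and 3.46 CPM with DMSO. It fell by 0.90, 0.69 and 1.84 on the log2 scale at 24, 72 and 120 h, and HOXA6, which contains 88.3% of the HOXA5 exons, fell by 0.88, 0.72 and 2.02 (adjusted p = 1.73e-10 for HOXA5 and 3.53e-13 for HOXA6 at 120 h). HOXA4, covered wholly by other models, fell by 0.82 at 24 h (adjusted p = 0.0464) and rose by 0.77 and 1.29 at 72 and 120 h (adjusted p = 0.00712 and 4.61e-05). The 24 h call of HOXA4 was lost in DESeq2 (adjusted p = 0.0741), with only the 24 h groups fitted (0.105), without the filter (0.233) and without replicate 2 (0.0526) and in 4 of 6 fits without 1 library of 24 h (0.0687 to 0.217), and its 72 h call was lost without replicate 2 (0.179), which leaves the libraries of lane 3. HOXA7 had 190 fragments in all and log2 fold changes between -0.34 and 1.36, none of them called.

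HOXA9 and HOXA10, whose fragments are largely the same, fell slowly. HOXA9, the HOX gene best known for driving myeloid leukaemia, had 36.1, 33.7 and 32.3 CPM with ATRA at 24 h, against 39.3, 41.5 and 40.7 CPM with DMSO. At 120 h it had 21.6, 25.6 and 19.6 CPM with ATRA, against 37.5, 40.6 and 36 CPM with DMSO. All ATRA libraries lay below all DMSO libraries at both times. The log2 fold change was -0.14 at 4 h (adjusted p = 0.179), and HOXA9 fell by 0.24 at 12 h, 0.25 at 24 h, 0.61 at 72 h and 0.77 at 120 h (adjusted p = 0.00691, 0.0066, 3.71e-09 and 1.16e-11). HOXA10, a regulator of myeloid maturation, fell by 0.26, 0.25, 0.63 and 0.78 at the same times. Its 12 h call was lost without replicate 2 (adjusted p = 0.0616) and its 24 h call without ATRA replicate 5 (0.0517).

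HOXA11 (chr7:27180698-27185232, minus strand), a limb and uterus gene with 1 hexamer in its promoter above, shares no exon with another model of its strand. It had 5.41, 4.76 and 4.75 CPM with ATRA at 4 h, against 11.2, 10.8 and 10.0 CPM with DMSO. At 24 h it had 9.90, 12.0 and 11.1 CPM with ATRA, against 13.8, 13.3 and 13.3 CPM with DMSO, and at 120 h 7.71, 7.05 and 4.73 CPM with ATRA, against 14, 14.1 and 13.2 CPM with DMSO. Its course had 2 dips: it fell by 1.10 at 4 h, by 0.41 at 12 h, by 0.29 at 24 h, by 1.10 at 72 h and by 1.09 at 120 h on the log2 scale (adjusted p = 3.15e-09, 0.00345, 0.0411, 3.03e-10 and 3.17e-10). The change between times was itself called, at 0.69 from 4 to 12 h (adjusted p = 0.00334) and -0.80 from 24 to 72 h (adjusted p = 0.000106). The 24 h call was lost without the filter (adjusted p = 0.0837), without replicate 2 (0.322), which leaves the libraries of lane 3, and on leaving out any single library of 24 h other than ATRA replicate 4 (0.0760 to 0.199).

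HOXA13 (chr7:27187345-27200135, minus strand), the most posterior gene of the cluster, needed for digits and the urogenital tract, fell late. At 4 h it had 12.6, 14.4 and 12.2 CPM with ATRA, against 14.8, 17.8 and 15.3 CPM with DMSO. At 24 h it had 19, 20.3 and 18.8 CPM with ATRA, against 18.8, 18.8 and 17.7 CPM with DMSO, and the groups touched. At 120 h it had 3.71, 4.28 and 3.42 CPM with ATRA, against 21, 20.4 and 19 CPM with DMSO, the largest fall in fold of the HOXA genes tested at that time. HOXA13 fell by 0.29 at 4 h (adjusted p = 0.0075), by 1.24 at 72 h (1.41e-16) and by 2.40 at 120 h (1.95e-23), with values of 0.11 and 0.07 at 12 and 24 h, neither called. The 4 h call was lost with only the 4 h groups fitted (adjusted p = 0.105), without replicate 2 (0.0643), without ATRA replicate 5 (0.0535) and without DMSO replicate 4 (0.0951).

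**Figure D3:**
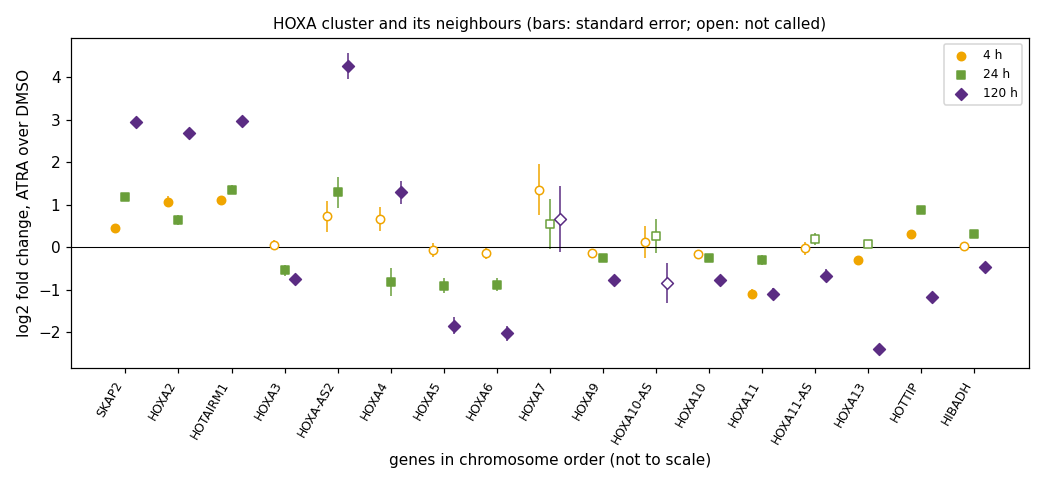
Log2 fold change of ATRA over DMSO with its standard error for genes in and beside the HOXA cluster, in chromosome order, at 4 h (circles), 24 h (squares) and 120 h (diamonds); open marks were not called. At 120 h the genes from SKAP2 to HOTAIRM1 lie between 2.69 and 2.96, HOXA5 and HOXA6 at -1.84 and -2.02, and HOXA13 at -2.40.

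The non-coding genes and neighbours of the clusters, taken from lists, were followed as well. Of 22 listed HOX-cluster non-coding RNAs, HOTAIRM1 among them, 7 were tested. Of these 2 had risen at 4 h, 5 at 12 h, 3 at 24 h and 2 at 72 h with none lower, and at 120 h 2 had risen and 2 had fallen. Of all genes, 12.3%, 20%, 17.4%, 32.1% and 34.9% were called higher from 4 to 120 h. The shares called lower were 12.4%, 18.7%, 15.8%, 32.6% and 35.6%. HOXA-AS2, antisense to HOXA3, rose by 2.05, 1.29, 3.14 and 4.27 on the log2 scale at 12, 24, 72 and 120 h (adjusted p = 1.53e-05, 0.00441, 3.22e-13 and 1.5e-15), with 4.89, 4.59 and 5.76 CPM in ATRA libraries at 120 h. HOTTIP, transcribed from the 5′ tip beside HOXA13 and known in other cells for recruiting the WDR5-MLL complex, rose by 0.31, 1.29 and 0.88 at 4, 12 and 24 h and fell by 1.17 at 120 h. It had 17.9, 17.2 and 18 CPM with ATRA at 12 h, against 7.19, 8.07 and 6.30 CPM with DMSO, and 2.76, 3.23 and 3.56 CPM with ATRA at 120 h, against 7.19, 7.31 and 7.06 CPM with DMSO. HOXA11-AS rose by 0.65 at 12 h and fell by 0.67 at 120 h (adjusted p = 0.000239 and 0.000297).

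Of 17 genes flanking the 4 clusters 13 were tested, and 3, 4, 4, 5 and 6 had risen and 1, 1, 1, 6 and 6 had fallen from 4 to 120 h. The shares of all genes called either way at these times were 24.7%, 38.7%, 33.2%, 64.7% and 70.6%. SKAP2, an adaptor protein of myeloid cells and the neighbour beyond the 3′ end of HOXA, rose at every time, by 0.45, 1.60, 1.19, 2.28 and 2.96. SNX10, a sorting nexin farther along the same chromosome, fell by 0.21, 0.37 and 0.97 at 4, 12 and 24 h and rose by 1.52 at 120 h. Beside HOXC, CBX5, which encodes the heterochromatin protein HP1 alpha, fell by 1.02 and 2.49 at 72 and 120 h, and CALCOCO1 rose by 0.37, 0.67, 0.42 and 1.61 at 4, 12, 72 and 120 h. The medians of the 13 lay between 0.02 and 0.20, and those of all tested genes between -0.03 and 0.03.

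HOXB7, HOXB8 and HOXB9 (chr17:48606042-48647331, minus strand), 1 measurement in 3 models, moved in the DMSO cells as much as with ATRA. HOXB9 had 3.31, 4.52 and 3.18 CPM with ATRA at 4 h, against 5.19, 4.10 and 4.89 CPM with DMSO, groups that overlap. At 72 h it had 7.62, 7.69 and 6.92 CPM with ATRA, against 19.8, 23 and 21.3 CPM with DMSO. At 120 h it had 3.49, 2.87 and 1.87 CPM with ATRA, against 9.51, 13 and 11.5 CPM with DMSO. HOXB9 fell by 1.53 at 72 h and 2.06 at 120 h (adjusted p = 7.71e-13 and 1.92e-14), HOXB7 by 1.45 and 1.88 and HOXB8 by 1.46 and 1.94. HOXB7 and HOXB8 were also called lower at 4 h, by 0.46 each (adjusted p = 0.0113 and 0.014), but not without replicate 2 (0.276 and 0.302) or ATRA replicate 5 (0.0821 and 0.097), without replicate 2 of ATRA (0.0575 and 0.0682) or of DMSO (0.0935 and 0.106) alone, nor with only the 4 h groups fitted (0.0689 and 0.0748).

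The DMSO libraries of 72 h stood apart for this block. Against untreated cells (8.32, 7.26 and 9.51 CPM) HOXB9 fell in DMSO by 0.83, 1.59 and 1.30 at 4, 12 and 24 h and rose by 1.35 at 72 h and 0.44 at 120 h (adjusted p = 3.34e-05, 4.16e-10, 4.8e-08, 4.65e-11 and 0.0179). In DMSO it had 19.8, 23 and 21.3 CPM at 72 h, against 2.84, 2.80 and 2.67 CPM at 12 h. The 12 h libraries were run in lane 4 and the 72 h libraries in lanes 2 and 3, so the difference between these times cannot be told apart from the lane. The DMSO libraries of 24 h, run in the same lanes as those of 72 h, had 3.11 to 3.69 CPM. With the mean of DMSO at 24 and 120 h in place of DMSO at 72 h, the 72 h fold changes of ATRA turned round, to 0.32 for HOXB7, 0.31 for HOXB8 and 0.25 for HOXB9 (adjusted p = 0.00947, 0.0137 and 0.0766). HOXB3, whose model also holds HOXB6 wholly, had 446 fragments and was called higher at 4 h by 0.97 (adjusted p = 0.0488), a call lost in DESeq2 (0.101), with RLE scaling (0.0516), without the filter (0.244), with only the 4 h groups fitted (0.16) and without replicate 4 or 5 of either group (0.0877 to 0.263). HOXB6 gave values between 0.10 and 0.87, none called. It was called higher at 4 h without replicate 2 (adjusted p = 0.0332) or DMSO replicate 2 (0.0325).

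The same substitution, of other DMSO times for 72 h, turned or ended other 72 h calls of overlapping models, to 0.15 for HOXA3, 0.021 for HOXC10 and 0.24 for HOXC6, and to -0.14 for HOXA5 and -0.22 for HOXA6 (adjusted p = 0.213, 0.833, 0.00933, 0.394 and 0.112). It left HOXA11 at -1.15, HOXA13 at -0.72, HOXD13 at -0.35, HOTAIRM1 at 3.34, HOXC12 at 3.04 and HOXC13 at 1.41, each still called. It also made 6 genes higher that were not called against DMSO at 72 h, namely HOXC8 at 1.20, HOXC11 at 1.23, HOXB3 at 1.14, HOXB6 at 0.91, HOXC4 at 0.85 and HOXC9 at 0.85 (adjusted p = 3.01e-08, 0.00033, 0.000371, 0.01, 6.63e-07 and 0.000824). The call of HOXC6 at 72 h, a fall, was also lost without replicate 2 (adjusted p = 0.123) or ATRA replicate 2 (0.0534). Of the 26 genes, 12 had risen and 2 had fallen in DMSO at 72 h against untreated cells, where 26.9% of all genes were called higher and 24.7% lower (51.6% either way). At 4 h 2 had risen and 6 had fallen, where 15.7% of all genes were called higher and 15.7% lower (31.4% either way), and at 12 h 2 and 7, where 11.2% and 11.5% were (22.7%). At 24 h 2 had risen and 3 had fallen, where 9.87% and 9.24% of all genes were called higher and lower (19.1% either way), and at 120 h 3 and 2, where 12.3% and 9.58% were (21.9%). The 12 h count was 3 without replicate 2, 4 without untreated replicate 2 or 4 or DMSO replicate 2, 5 without DMSO replicate 5 and 4 without the filter. The 120 h count was 3 without replicate 2, 2 without untreated replicate 2, 1 without untreated replicate 4, 2 without DMSO replicate 4 and 0 without DMSO replicate 5.

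**Figure D4:**
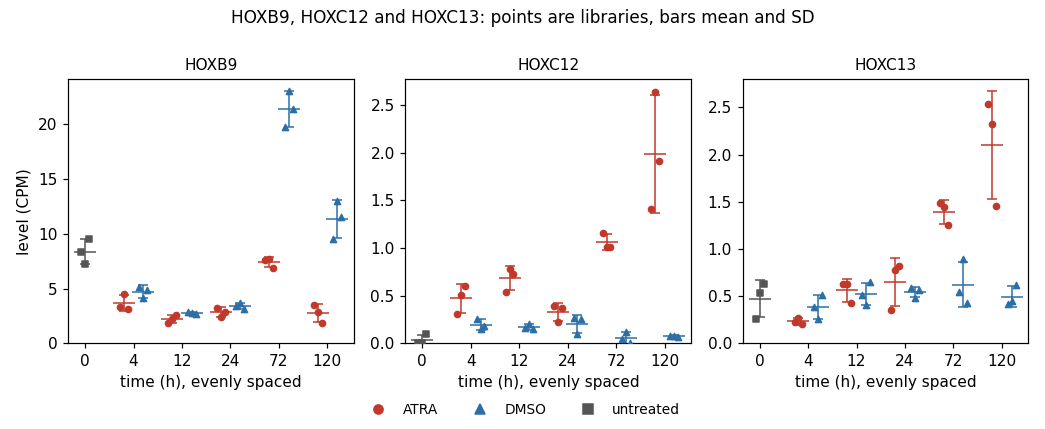
Levels of HOXB9, HOXC12 and HOXC13 in CPM in each library by time, with the mean and SD of 3 libraries, for ATRA (circles, left), DMSO (triangles, right) and untreated cells (squares at 0 h). HOXB9 peaks in the DMSO libraries of 72 h at 19.8 to 23 CPM, and the ATRA libraries of HOXC12 and HOXC13 lie above the DMSO libraries at 72 and 120 h.

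At the 5′ end of HOXC, 2 posterior genes with counts of their own rose. HOXC12 (chr12:53954834-53964181, plus strand) had 0.305, 0.509 and 0.603 CPM with ATRA at 4 h, against 0.257, 0.146 and 0.182 CPM with DMSO. By 120 h it had 1.41, 2.64 and 1.92 CPM with ATRA, against 0.0827, 0.0821 and 0.0692 CPM with DMSO. The 120 h values rest on 124 fragments with ATRA and 6 with DMSO, a ratio of 26.2 with an exact 95% interval of 11.7 to 72.7, and those of 72 h on 77 and 4 fragments, a ratio of 19.1 (7.15 to 71.7); the intervals cover counting error only. HOXC12 rose at 4, 12, 72 and 120 h (adjusted p = 0.0432, 0.000434, 1.96e-08 and 3.97e-11), but the 4 h call was lost in DESeq2 (0.0572), without the filter (0.118), with only the 4 h groups fitted (0.0753) and without replicate 4 or 5 of either group (0.104 to 0.15). In DMSO it had 15, 15 and 16 fragments at 4, 12 and 24 h, against 3 in untreated cells, ratios of 5.06 (1.43 to 27.3), 4.62 (1.31 to 24.9) and 5.17 (1.48 to 27.7). With so few fragments in DMSO and untreated libraries, HOXC12 passed the filter only through its ATRA libraries. Its calls therefore rest on a gene kept by the group where it was high.

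HOXC13, a gene of hair and nail keratin formation, had 1.49, 1.44 and 1.25 CPM with ATRA at 72 h, against 0.547, 0.891 and 0.433 CPM with DMSO. At 120 h it had 2.53, 2.32 and 1.45 CPM with ATRA, against 0.413, 0.452 and 0.623 CPM with DMSO. The groups did not overlap at either time, and HOXC13 rose by 1.15 and 2.05 on the log2 scale (adjusted p = 0.00184 and 3.73e-07), with no call at 4, 12 or 24 h. HOXC11, nearly all of it inside another model, was called at 120 h and at no other time, where it rose by 1.21 (adjusted p = 0.00227).

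The models of the overlapping block from HOXC4 to HOXC10 differed in direction. HOXC10 had 6.13, 7.5 and 6.27 CPM with ATRA at 120 h, against 11.5, 11 and 11.3 CPM with DMSO, and fell by 0.76 (adjusted p = 1.35e-08), as did HOXC6 by 0.44 (0.000157). HOXC8 went the other way inside the same block, with 2.48, 3.00 and 2.67 CPM with ATRA at 120 h, against 1.24, 1.52 and 1.42 CPM with DMSO. It rose by 0.75 at 12 h, 0.56 at 24 h and 0.96 at 120 h (adjusted p = 0.0027, 0.0362 and 5.3e-05), the 24 h call being lost in DESeq2 (0.0814), with RLE scaling (0.0511), without the filter (0.161), without replicate 2 (0.198) and in 4 of 6 fits without 1 library of 24 h (0.0775 to 0.163). HOXC10 was also called lower at 4 h, by 0.27 (adjusted p = 0.0323), which did not hold without the filter (0.117), with only the 4 h groups fitted (0.128), without replicate 2 (0.178), in any fit without 1 ATRA library (0.0575 to 0.0864) or without DMSO replicate 5 (0.225). HOXC4 and HOXC9 were not called at any time, with log2 fold changes of -0.10 to 0.39 and -0.60 to 0.45. Both were called higher at 72 h against other DMSO times, as given above. HOXC4 was called higher at 120 h with RLE scaling (0.36, adjusted p = 0.0494). HOXC9 was called lower at 4 h without DMSO replicate 4 (-0.89, 0.0142) or ATRA replicate 4 (-0.90, 0.0431).

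HOXD13 (chr2:176092721-176096240, plus strand), the limb gene at the 5′ end of HOXD and the highest of the 7 per length in untreated cells, had the deepest early fall. At 4 h it had 8.19, 8.29 and 8.61 CPM with ATRA, against 26.2, 29.2 and 26.4 CPM with DMSO. Untreated cells had 46.6, 49.2 and 46.3 CPM. At 24 h it had 44.2, 44.8 and 42.9 CPM with ATRA, against 46.0, 49.0 and 47.5 CPM with DMSO, a difference that was not called (adjusted p = 0.296). At 120 h it had 11, 12.2 and 9.78 CPM with ATRA, against 45.9, 42.4 and 40.5 CPM with DMSO. HOXD13 fell by 1.71 ± 0.09 at 4 h, 0.36 ± 0.08 at 12 h, 0.51 ± 0.08 at 72 h and 1.97 ± 0.09 at 120 h (adjusted p = 1.71e-18, 0.000313, 5.5e-07 and 5.3e-22). In DMSO it also fell at 4 h against untreated cells, by 0.80 (adjusted p = 4.1e-10), as did HOXA11 by 0.45 and HOXA13 by 0.31 (adjusted p = 0.00175 and 0.00256), while at 24, 72 and 120 h none of these 3 was lower in DMSO than in untreated cells by a called difference.

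**Figure D5:**
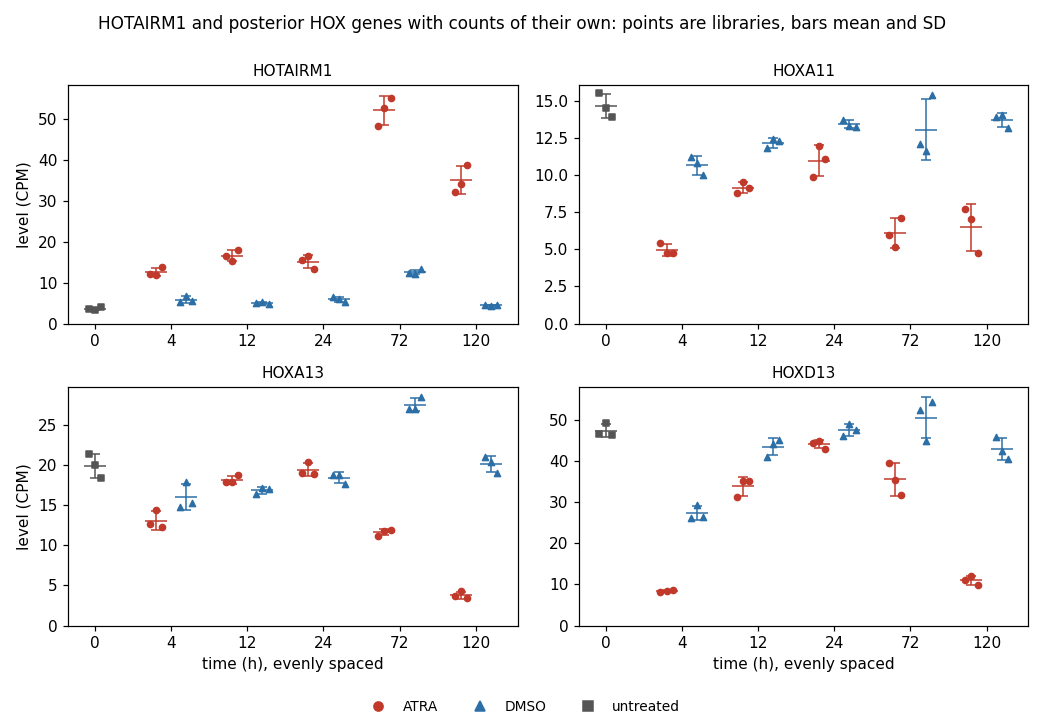
Levels of HOTAIRM1, HOXA11, HOXA13 and HOXD13 in CPM in each library by time, with the mean and SD of 3 libraries, for ATRA (circles, left), DMSO (triangles, right) and untreated cells (squares at 0 h). HOTAIRM1 with ATRA stands above DMSO at all 5 times, and HOXD13 with ATRA lies at 8.19 to 8.61 CPM at 4 h, 42.9 to 44.8 CPM at 24 h and 9.78 to 12.2 CPM at 120 h.

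The change of the ATRA effect between 4 and 12 h was tested directly. It moved up by 1.35 for HOXD13, 0.69 for HOXA11 and 0.39 for HOXA13, which had fallen at 4 h (adjusted p = 5.7e-11, 0.00334 and 0.0143), and by 0.61 for HOTAIRM1, which had risen at 4 h and stood higher still (0.00368), 4 higher and 0 lower of 26, where 8.13% of all genes were called higher and 5.89% lower (14% either way). The count was 2 without replicate 2 and 7 without DMSO replicate 4 of 4 h. From 12 to 24 h no HOX gene changed by the adjusted test, by edgeR or by DESeq2, with 6 at an unadjusted p under 0.05, where 2.5% of all genes were called higher and 4.4% lower (6.9% either way). Of the 26, 1 was called without ATRA replicate 2 of 24 h. From 24 to 72 h 4 moved up and 8 down (21.5% and 24.5% of all genes, 45.9% either way), and from 72 to 120 h 2 moved up and 7 down (17.5% and 21.8%, 39.3% either way), HOXD13 by -1.46 and HOXA13 by -1.16 in the last step. With the other DMSO times in place of 72 h, 16 moved up and 5 down from 24 to 72 h, and 1 moved up and 13 down from 72 to 120 h, HOXD13 by -1.62 and HOXA13 by -1.67. HOTAIRM1 moved up by 0.91 from 72 to 120 h against DMSO of each time, while its value with that substitution was -0.38 (adjusted p = 0.00289). Its ATRA libraries averaged 35.1 CPM at 120 h, against 52.1 CPM at 72 h.

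The rest of HOXD was nearly silent. HOXD12 had 356 fragments in all and rose at 120 h by 1.53 (adjusted p = 0.00281), with 1.18, 0.728 and 0.702 CPM with ATRA, against 0.289, 0.164 and 0.415 CPM with DMSO. HOXD9, HOXD10 and HOXD11, too low to pass the filter, had 24, 30 and 16 fragments with ATRA at 120 h, against 5, 5 and 1 with DMSO. The ratios were 6.08 (2.28 to 20.4), 7.60 (2.92 to 25.1) and 20.3 (3.15 to 850.2), with exact 95% intervals. Of the 13 untested genes only these 3 were given a ratio, and only at 120 h. The intervals cover counting error and take no account of that choice of genes and time. Without ATRA replicate 5 the first 2 ratios were 3.51 (1.06 to 13.3) and 4.67 (1.53 to 16.9), and without DMSO replicate 4 they were 10.4 (2.59 to 91) and 13 (3.31 to 112.5). The ratio of HOXD11 was 13.9 without DMSO replicate 2 and 12.7 without DMSO replicate 5. HOXD9 shares 67.9% of its exons with other models, and 91.4% of the HOXD10 exon length lies in HOXD9. These fragments are therefore partly the same, and HOXD9 and HOXD10 are not separate measurements. HOXD1, HOXD3 and HOXD4 had 10, 22 and 1 fragments in all libraries together.

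Proteins that work with HOX factors, or that switch the clusters on or off, were counted from lists, beside 24.7%, 38.7%, 33.2%, 64.7% and 70.6% of all genes called either way from 4 to 120 h. Counts near those shares are not a result about a list. Of 11 TALE cofactors, the homeodomain partners that bind DNA beside HOX proteins, 10 were tested, and 2, 1, 1, 5 and 5 had risen and 3, 1, 3, 2 and 1 had fallen from 4 to 120 h. MEIS2 rose at every time, by 0.50, 0.63, 0.54, 1.22 and 0.70; PBX2 rose by 0.33 and 0.47 at 72 and 120 h. TGIF1 fell by 1.63, 0.58 and 1.05 at 4, 12 and 24 h and rose by 0.34 and 0.25 later, and TGIF2 fell by 0.72, 0.16 and 0.70 at 4, 72 and 120 h. MEIS1, the partner of HOXA9 in leukaemia, named here after its values were seen, rose by 0.69 and 0.54 at 72 and 120 h (adjusted p = 0.00571 and 0.0428).

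Of 23 MLL and trithorax genes, which keep HOX genes active, 22 were tested, and 3, 2, 3, 7 and 8 had risen and 6, 7, 9, 10 and 11 had fallen from 4 to 120 h. WDR5, a core subunit of the MLL complexes, fell at every time, by 0.37, 0.45, 0.34, 1.03 and 1.83. NPM1, whose mutant form maintains HOX expression in leukaemia, fell by 1.54 and 1.90 at 72 and 120 h, PSIP1, the chromatin tether of MLL, fell by 1.00 and 1.29, and AFF4, a scaffold of the super elongation complex, rose by 0.97 and 1.28. Of 28 Polycomb genes, which silence HOX clusters, all were tested, and 4, 3, 3, 8 and 14 had risen and 5, 11, 8, 12 and 11 had fallen, which at 72 h is 20 of 28 beside 64.7% of all genes. CBX2, a reader of H3K27 methylation, fell at every time, by 2.63 at 120 h, while PCGF5, PHC2 and PCGF3, members of PRC1 complexes, rose by 2.21, 1.35 and 1.04 at 120 h. At 120 h the medians were -0.14 for the MLL and trithorax list and 0.11 for the Polycomb list, against -0.03 for all tested genes.

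Of 8 retinoid genes, all tested, 6, 7, 4, 7 and 6 had risen from 4 to 120 h and 1 had fallen, at 120 h. The shares of all genes called higher at these times were 12.3%, 20%, 17.4%, 32.1% and 34.9%. DHRS3, a retinaldehyde reductase, rose by 5.33 at 4 h and 5.44 at 120 h, TGM2, tissue transglutaminase, by 4.69 and 11.21, STRA6, a retinol carrier, by 2.30 and 1.62, and CYP26B1, a retinoic acid hydroxylase, by 3.77 and 4.16. Of 6 ParaHox and CDX genes 2 were tested: PDX1 rose by 2.31 at 120 h (adjusted p = 0.000402) and CDX2 by 2.01 at 24 h (0.0166).

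Marker lists of cell types were followed beside the HOX genes. Of all genes, 12.3%, 20%, 17.4%, 32.1% and 34.9% were called higher from 4 to 120 h. The shares called lower were 12.4%, 18.7%, 15.8%, 32.6% and 35.6%. At 120 h the summed level of 8 promyelocyte markers was 996 to 1312 CPM in ATRA libraries, against 10040 to 12250 CPM in DMSO libraries, with 5 of 7 tested lower and 1 higher, and MPO, the peroxidase of azurophil granules, fell by 4.51. At 4 h the sums were 8763 to 9444 CPM with ATRA and 9015 to 10140 CPM with DMSO, ranges that overlap. At 12 h they were 6828 to 8039 CPM with ATRA and 8946 to 10390 CPM with DMSO, with 4 of 7 tested higher and 3 lower. At 24 h they were 11090 to 11890 CPM with ATRA and 10030 to 11440 CPM with DMSO, again overlapping, with 4 higher and 2 lower. The 8 monocyte and macrophage markers summed to 473 to 528 CPM with ATRA at 120 h, against 11.2 to 13.2 CPM with DMSO, and to 154 to 188 CPM with ATRA at 72 h, against 8.46 to 9.85 CPM with DMSO. They already stood at 18.2 to 20.7 CPM with ATRA at 4 h, against 12.6 to 13.7 CPM with DMSO, and at 34.4 to 35.4 CPM with ATRA at 12 h, against 10.4 to 10.8 CPM with DMSO, with 3 of 7 tested higher at both times. At 72 and 120 h 7 of 7 tested were higher, CSF1R by 3.51 and 2.56, and MRC1 was at 0 in ATRA and DMSO libraries of both times. The 7 lymphocyte markers summed to 336 to 397 CPM with ATRA at 120 h, against 45.2 to 60.7 CPM with DMSO, with MS4A1 and CD2 at 0 in the ATRA libraries and CD3E and CD2 at 0 in the DMSO libraries. NKG7, a granule protein gene, made up most of these sums, with means of 343 CPM with ATRA and 48.5 CPM with DMSO, while CD3D, a T-cell receptor subunit, fell by 1.95 (0.385 CPM with ATRA and 1.48 CPM with DMSO).

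The other lists stayed low. The 6 stem and progenitor markers summed to 3.65 to 4.78 CPM with ATRA at 120 h, against 7.64 to 8.43 CPM with DMSO, with 2 of 2 tested lower. The 8 erythroid and megakaryocyte markers summed to 5.34 to 8.32 CPM with ATRA and 8.95 to 9.26 CPM with DMSO at 120 h, and HBB, HBG1, ALAS2, GP9 and PF4 were among those at 0 in both. Earlier they stood above DMSO, at 4.07 to 4.58 against 2.1 to 2.67 CPM at 4 h. At 12 h they had 4.62 to 5.76 against 2.45 to 3.68 CPM, with 2 of 2 tested higher at both times. The 8 epithelial and fibroblast markers summed to 17.3 to 19 CPM with ATRA and 23.9 to 25.7 CPM with DMSO, with KRT19 and COL1A2 at 0 in both. The part of these cell type markers in the HOX values was not tested.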

How the data were processed

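NB4 cells were compared by stranded total RNA sequencing (150 bp paired ends, per the labels' protocols). Values are raw fragment counts per gene, made by the authors with featureCounts 1.5.1 on merged Ensembl and FANTOM CAT models of GRCh38, per the file headers. A fragment overlapping several genes was counted in each, and counting used the strand, per the file headers. Per the submitters' processing notes, the tools used include STAR 2.5.2b, Trimmomatic 0.36 and Subread 1.5.1. Symbols came from GENCODE 29 (57447 identifiers matched). Groups and replicate numbers were taken from sample titles, lanes from column names.

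The HOX genes and all gene lists were chosen with earlier results of these data known. A further gene that fits the symbol rule was not analysed here. Genes with at least 330 counts are given by library where the results turn on them. From each list the 4 called genes of smallest p were named.

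The test was that of edgeR 4.0.16 (R 4.3.3) after filterByExpr (22971 genes), with TMM factors of 0.827 to 1.11, and 1 quasi-likelihood model over 33 libraries (prior degrees of freedom 15.93, biological coefficient of variation 0.0769), with Benjamini-Hochberg adjustment at 0.05. Standard errors are those implied by the F statistic. Exact 95% intervals of count ratios, and floors of 3 counts, cover counting error only. Scripts were tested on simulated data. Alternatives were DESeq2 1.42.0, RLE scaling, no filter, only the groups compared, mitochondrial and small RNA genes left out, a replicate block, each library left out, and other DMSO times in place of 72 h. Same-numbered libraries deviated together in every replicate (each correlation over 0.1) only for ATRA against DMSO at 120 h (0.105, 0.195 and 0.331) and DMSO at 4 h against untreated cells (0.158, 0.153 and 0.256). For ATRA against DMSO at 12 h 2 replicates did so (0.32 and 0.322) and replicate 5 did not (0.0823). With the replicate block the counts of these comparisons were 21, 9 and 9, against 21, 8 and 8 without it.

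Promoters are from RefSeq (GRCh38.p14). Tables and figures used Python with pandas and matplotlib.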

Additional observations from a re-analysis of the deposited data

Results flagged for a closer look

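The ATRA effect itself differed between successive times for some genes, by the interaction test of the model (edgeR, adjusted p under 0.05). Between 4 and 12 h the log2 effect moved by 1.35 for HOXD13, 0.69 for HOXA11, 0.61 for HOTAIRM1 and 0.39 for HOXA13.

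Between 24 and 72 h it moved up by 3.40 for HOXC12, 1.59 for HOXA4, 1.45 for HOXA2 and 0.69 for HOTAIRM1. Over the same interval it moved by -1.31 for HOXA13, -1.29 for HOXB9, -1.23 for HOXB8, -1.21 for HOXB7, -0.80 for HOXA11, -0.40 for HOXD13, -0.38 for HOXA10 and -0.36 for HOXA9. The DMSO libraries of 72 h stood apart for HOXB7 to HOXB9 (HOXB9 at 19.8 to 23 CPM, against 3.11 to 3.69 CPM in DMSO at 24 h), and for HOTAIRM1 (12.1 to 13.2 CPM, against 5.31 to 6.43 CPM). With the mean of DMSO at 24 and 120 h in their place the step was 0.56 for HOXB7, 0.54 for HOXB8 and 0.49 for HOXB9.

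Between 72 and 120 h it moved up by 0.91 for HOTAIRM1 and 0.59 for HOXA2, and by -1.46 for HOXD13, -1.30 for HOXA6, -1.16 for HOXA13, -1.15 for HOXA5, -0.53 for HOXB9, -0.48 for HOXB8 and -0.39 for HOXC10. With the same DMSO times in place of 72 h the step was -0.38 for HOTAIRM1 and 0.18 for HOXA2 (edgeR, adjusted p = 0.2 for HOXA2).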

How the results depend on the processing

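The counts of HOX genes called with ATRA stayed within 1.5 times of those given under other scaling, DESeq2, no filter, the replicate block and removal of mitochondrial and small RNA genes. With only the groups compared in the fit, 4 were called at 4 h. Without the filter, 4 were called in DMSO at 12 h. With the mean of DMSO at 24 and 120 h in place of DMSO at 72 h, the fold changes turned to 0.15 for HOXA3, 0.32 for HOXB7, 0.31 for HOXB8, 0.25 for HOXB9, 0.021 for HOXC10 and 0.24 for HOXC6. The split at 72 h was then 14 higher and 5 lower. With the same substitution, added after seeing the data for the successive changes, 21 changed from 24 to 72 h and 14 from 72 to 120 h; the first step turned to 0.56 for HOXB7, 0.54 for HOXB8, 0.49 for HOXB9, 0.60 for HOXC4 and 0.65 for HOXC8, and the second to -0.38 for HOTAIRM1 and -0.58 for HOXC4. With single libraries or replicate 2 left out, the counts for ATRA ran from 4 to 9, 7 to 10, 7 to 9, 16 to 18 and 21 to 21 at 4, 12, 24, 72 and 120 h, and those for DMSO against untreated cells from 6 to 8, 3 to 9, 4 to 5, 12 to 16 and 0 to 5. The counts for successive changes ran from 2 to 7, 0 to 1, 10 to 14 and 6 to 10. Of 130 fold changes with ATRA 67 were called, and 58 without replicate 2. No fold change that was called reversed when libraries were left out. With the replicate number as a block the counts were 9, 9, 10, 18 and 21 for ATRA, 9, 10, 7, 14 and 5 for DMSO, and 4, 0, 12 and 9 for the changes; HOXA6 at 12 h was then also called (adjusted p = 0.0319) and HOXB3 at 4 h was not (0.0539). Shared gene models limit all but 7 of the tested genes, and depth limits the 13 that were not tested.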
